A study of Mus musculus with 4 samples.

Results

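The Hox cluster genes were followed in basal cells of mouse tail epidermis that express an activated Hedgehog transducer, with and without the transcription factor Sox9. Members were all genes whose symbol in the platform annotation was Hox, a cluster letter a to d and a number, with every one of their probe sets (the groups of short oligonucleotides that read 1 transcript on an Affymetrix array). This gave 48 probe sets for 33 genes, out of 45037 probe sets and 18193 genes on the arrays. Hox genes outside these 33 were not analysed here. A further 3 probe sets were assigned to a pair of Hox genes each and were left out.

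Hox genes encode homeodomain transcription factors that give cells their position along the head to tail axis. They lie in 4 clusters, and the order of the genes along a cluster follows the place along the body where each is used, low numbers (paralog groups) towards the head and high numbers towards the tail and the ends of the limbs. HOX proteins bind DNA together with TALE homeodomain partners of the Pbx and Meis families, and the clusters are silenced by Polycomb complexes and kept active by Trithorax complexes. Adult skin keeps a Hox pattern that marks its body site, and Hoxc13 in addition controls keratin genes of the hair shaft.

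There were 4 arrays, 2 of each genotype. The SmoM2 group (K14CreER:SmoM2) carried SmoM2, a constitutively active form of Smoothened, switched on by a tamoxifen-dependent Cre under the K14 promoter, which is active in basal keratinocytes of epidermis and hair follicle. The Sox9cKO group (K14CreER:SmoM2:Sox9cKO) carried the same alleles and a conditional Sox9 deletion, so both groups expressed SmoM2 and no array without SmoM2 was analysed here. Tamoxifen was given at 2.5 mg a day for 10 days, and tissue was taken 9 weeks after the first dose. Cells positive for integrin alpha 6, a basal marker, and negative for CD34, a bulge stem cell marker, were sorted. Age and the number of animals behind each replicate are not stated in the labels, so p-values measure only the spread between these samples, which may be partly technical.

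Values are log2 signals as deposited, so a difference of 1 is a 2-fold change, and the median array signal lay between 5.45 and 5.47. Across probe sets the 4 arrays correlated at 0.991 within each genotype and at 0.978 to 0.980 between genotypes. Of the 3 Sox9 probe sets, the one that was brightest in SmoM2 measured 10.21 and 10.02 there and 6.75 and 5.70 in Sox9cKO, a log2 change of -3.89 (limma over all probe sets, adjusted p = 0.00171). The other Sox9 probe sets did not pass (adjusted p = 0.148 and 0.309), and where they lie relative to the deleted part is not known from the labels. All 9 measured interfollicular basal markers, Krt5, Krt14 and Itga6 among them, were above the reference level described next on all 4 arrays.

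Whether a Hox gene was expressed was judged against a reference, the 95th percentile of 77 probe sets for odorant and vomeronasal receptors, genes of the nose that skin is not known to use. It lay at 5.08 and 4.95 on SmoM2 replicates 1 and 2, and at 5.11 and 5.20 on Sox9cKO replicates 1 and 2. Signals of different probe sets also depend on the probes, so each gene is set against this reference only, not against another gene. A gene with more than 1 probe set is given at the probe set whose mean over the 4 arrays was highest. By this measure 20 of the 33 Hox genes were above the reference on all 4 arrays (60.6%, against 62.8% of all genes), 3 on some arrays and 10 on none.

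**Figure D1:**
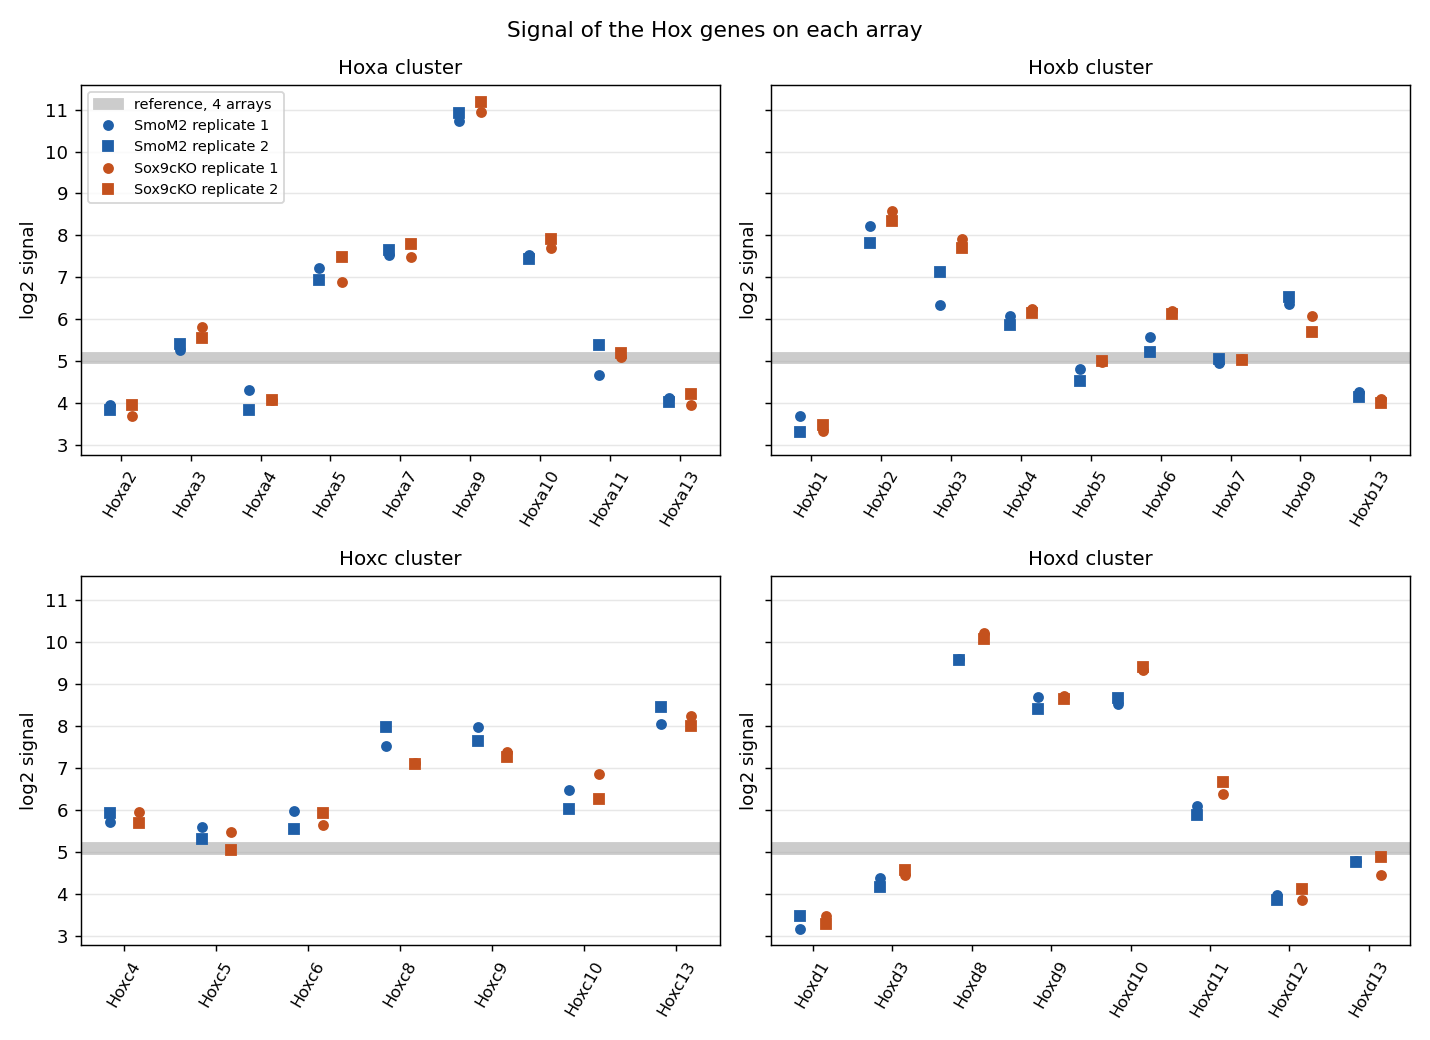
Log2 signal of the 33 Hox genes on each of the 4 arrays, 1 panel per cluster with genes ordered by paralog group; circles and squares are replicates 1 and 2, blue SmoM2 and orange Sox9cKO, and the grey band spans the reference level of the 4 arrays (4.95 to 5.20). In the Hoxd panel Hoxd8 to Hoxd11 stand above the band and Hoxd1, Hoxd3, Hoxd12 and Hoxd13 below it; heights of different genes are not comparable.

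In the Hoxd cluster (chromosome 2, 74668225 to 74765142, RefSeq annotation of GRCm38.p6) the genes above the reference formed 1 run among those measured. Hoxd8, Hoxd9, Hoxd10 and Hoxd11 exceeded it on all 4 arrays, while Hoxd12 and Hoxd13 on one side and Hoxd3 and Hoxd1 on the other exceeded it on none. Hoxd13, a gene of digits and of the genital and tail region, measured 4.79 and 4.75 in SmoM2 and 4.45 and 4.88 in Sox9cKO. The Hoxc cluster (chromosome 15, 102921131 to 103036856) had 6 of 7 measured genes above the reference on all arrays, and Hoxc5 was above it on 3. In the Hoxa cluster (chromosome 6) these were Hoxa3, Hoxa5, Hoxa7, Hoxa9 and Hoxa10, with Hoxa11 above it on 1 array and Hoxa2, Hoxa4 and Hoxa13 on none. Hoxa3 counted through 1 of its 4 probe sets, and the others were above the reference on no array. In the Hoxb cluster (chromosome 11, 96194316 to 96368254) they were Hoxb2, Hoxb3, Hoxb4, Hoxb6 and Hoxb9, with Hoxb7 above it on 1 array and Hoxb1, Hoxb5 and Hoxb13 on none. By position, 3 of 7 anterior genes (paralog groups 1 to 3), 8 of 12 central genes (groups 4 to 8) and 9 of 14 posterior genes (groups 9 to 13) were above it on all arrays. Of the 4 paralog group 13 genes, Hoxc13 alone was above it, on all 4 arrays, and Hoxa13, Hoxb13 and Hoxd13 were above it on none. A gene below this reference may still be expressed at a level these probes do not separate from it.

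Without Sox9, 2 Hox genes rose and 0 fell at an adjusted p under 0.05 over all 18193 genes (limma). At an unadjusted p under 0.05 the counts were 6 higher and 3 lower. The share of all genes under that unadjusted threshold was not analysed here, so those counts have no background to be read against. The genes that rose at the adjusted p were Hoxd10 and Hoxb6. The share called, 6.06% of 33 Hox genes, was near the 6.19% of all genes, so Hox genes as a family were not called more often than other genes. In each direction the background was 2.66% higher and 3.53% lower. The arrays of the genotypes did not overlap for 16 of the 33 Hox genes (48.5%, against 47.9% of all genes), 12 higher (26.0% of all genes) and 4 lower (21.8% of all genes). The median log2 difference was 0.07 over the Hox genes and 0.02 over all genes. Among genes above the reference on all 4 arrays it was 0.23 over the Hox genes and 0.014 over all genes, with no test between them. With 2 arrays against 2, an exact permutation test of 1 gene cannot go below p = 0.333, so the calls rest on the spread limma shares across genes. With 1 array left out, Hoxd10 missed the threshold whichever array it was, and Hoxb6 kept its call only without SmoM2 replicate 1. The log2 difference then ranged from 0.70 to 0.84 for Hoxd10 and from 0.57 to 0.95 for Hoxb6.

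The counts by cluster are read against the 26.0% of all genes that were higher and the 21.8% that were lower with arrays not overlapping, with no test between clusters. In the Hoxd cluster 4 of 8 genes were higher with arrays not overlapping and 0 lower, and in the Hoxa cluster 3 of 9 higher and 0 lower. The Hoxb cluster had 5 of 9 higher and 2 lower, and the Hoxc cluster 0 of 7 higher and 2 lower. The cluster medians of the log2 difference were 0.11 for Hoxa, 0.23 for Hoxb, -0.14 for Hoxc and 0.18 for Hoxd. These include genes not above the reference. Over the genes above it on all 4 arrays the medians were 0.235 for Hoxa (5 genes), 0.44 for Hoxb (5), -0.07 for Hoxc (6) and 0.56 for Hoxd (4).

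**Figure D2:**
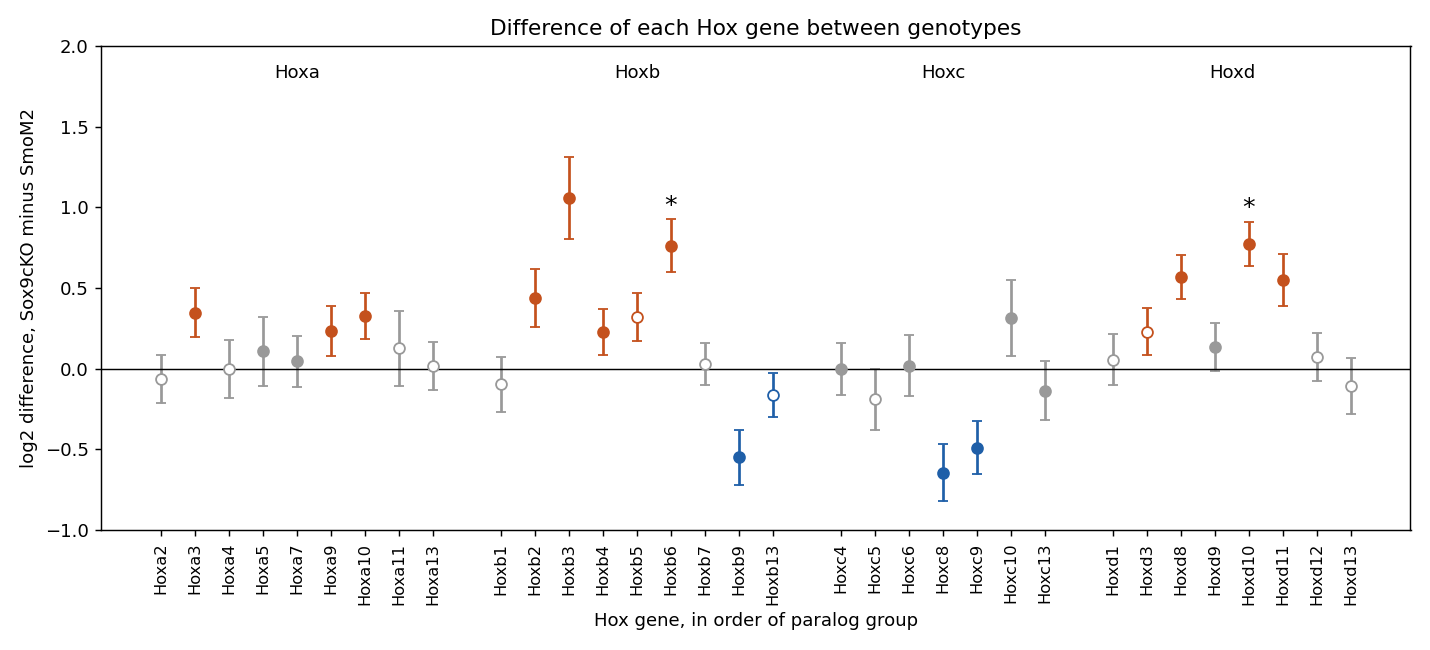
Log2 difference (Sox9cKO minus SmoM2) of each Hox gene, ordered by cluster and paralog group, with bars of 1 standard error from limma. Orange and blue mark genes whose arrays did not overlap, higher and lower in Sox9cKO, grey marks overlap, filled points were above the reference on all 4 arrays, and stars mark the calls, Hoxb6 at 0.76 and Hoxd10 at 0.77.

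The promoters of the called Hoxd10 and of its neighbours Hoxd9 and Hoxd8 are shown: Hoxd8 was higher without overlap and not called (adjusted p = 0.0565), and Hoxd9, which lies between them, overlapped between the genotypes. The 250 bases before each start site are from RefSeq (GRCm38.p6, plus strand), Hoxd10 at chr2:74691641-74691890, Hoxd9 at chr2:74697513-74697762 and Hoxd8 at chr2:74704365-74704614. The Hoxd10 window lies inside the span of that gene (74684273 to 74695106), so the start site used there is not the outer edge of the gene. Capitals mark the motif matches that were found.
Hoxd10: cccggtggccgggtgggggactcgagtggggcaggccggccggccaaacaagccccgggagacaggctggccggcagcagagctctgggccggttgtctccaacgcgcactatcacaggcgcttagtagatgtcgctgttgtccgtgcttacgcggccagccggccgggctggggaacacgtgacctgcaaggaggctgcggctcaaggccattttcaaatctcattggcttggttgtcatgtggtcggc
Hoxd9: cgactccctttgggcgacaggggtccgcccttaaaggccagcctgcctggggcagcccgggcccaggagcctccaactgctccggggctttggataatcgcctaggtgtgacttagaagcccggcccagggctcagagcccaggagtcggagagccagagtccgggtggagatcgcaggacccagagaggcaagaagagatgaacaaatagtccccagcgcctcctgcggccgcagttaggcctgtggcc
Hoxd8: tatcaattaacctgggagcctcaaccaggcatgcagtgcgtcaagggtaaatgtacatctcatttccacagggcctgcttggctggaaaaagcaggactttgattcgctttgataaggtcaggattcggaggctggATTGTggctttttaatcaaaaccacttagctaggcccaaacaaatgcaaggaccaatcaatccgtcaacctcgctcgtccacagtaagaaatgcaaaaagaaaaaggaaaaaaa
Of these bases, 65.6% were G or C in Hoxd10, 65.2% in Hoxd9 and 44.4% in Hoxd8, against a median of 52.4% over 32851 promoter windows of the same length. The CpG dinucleotide occurred 20 times in Hoxd10, 13 times in Hoxd9 and 6 times in Hoxd8, against a median of 6. Both strands were searched for ACAAT (a core of SOX binding sites), GACCACCCA (the GLI consensus), TGATNNAT (a HOX-PBX site) and TATAAA (the TATA box). The match among these 3 windows was 1 ACAAT, read as ATTGT on the strand shown and starting 114 bases before the Hoxd8 start, and 27.7% of all windows hold that motif. GACCACCCA was in 0.225% of all windows, TGATNNAT in 7.68% and TATAAA in 12.4%. The matches describe these letters only.

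Hoxd10, a posterior gene of the limb and lower trunk (chromosome 2, 74684273 to 74695106), measured 8.53 and 8.67 in SmoM2 and 9.34 and 9.40 in Sox9cKO. Both Sox9cKO arrays were higher than both SmoM2 arrays, by a gap of 0.67 that exceeded the distance between replicates in either genotype (0.14 and 0.06). It rose 1.71-fold (log2 0.77, SE 0.14, limma adjusted p = 0.0188 over genes and 0.0315 over all probe sets). Hoxd8, used in the trunk, measured 9.60 and 9.57 in SmoM2 and 10.22 and 10.09 in Sox9cKO. The arrays did not overlap, and the log2 difference of 0.57 (SE 0.13, limma adjusted p = 0.0565) lay just outside the threshold. Its other probe set gave the same size, 7.96 and 8.19 against 8.65 and 8.63, and the mean of both passed (log2 0.57, adjusted p = 0.0426). Hoxd11, a gene of forearm and sacral patterning, measured 6.10 and 5.87 in SmoM2 and 6.39 and 6.67 in Sox9cKO. Here too the genotypes were apart, with a log2 difference of 0.55 that did not pass (SE 0.16, limma adjusted p = 0.115). Hoxd9 measured 8.68 and 8.41 in SmoM2 and 8.71 and 8.65 in Sox9cKO, so both groups overlapped (log2 0.13, adjusted p = 0.740). Hoxd3, below the reference on all arrays, was higher without overlap by 0.23 (adjusted p = 0.495).

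Hoxb6, a trunk gene of the central group (chromosome 11, 96292814 to 96301569), measured 5.58 and 5.21 in SmoM2 and 6.19 and 6.13 in Sox9cKO. It rose 1.70-fold (log2 0.76, SE 0.17, limma adjusted p = 0.0423), and missed the threshold over all probe sets (adjusted p = 0.0640), without SmoM2 replicate 2 (0.187) and without Sox9cKO replicate 1 or 2 (0.133 and 0.106). Hoxb3, a hindbrain and neck gene, had the largest difference of the 33, from 6.34 and 7.14 in SmoM2 to 7.90 and 7.69 in Sox9cKO. The SmoM2 replicates lay 0.79 apart, and the 2.08-fold difference (log2 1.06, SE 0.25) did not pass (limma adjusted p = 0.0583). Leaving out SmoM2 replicate 1 gave 0.66, and leaving out SmoM2 replicate 2 gave 1.45 (adjusted p = 0.0211). The other Hoxb3 probe set was lower in signal and differed in the same direction, at 5.64 and 5.83 against 6.42 and 6.10.

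Hoxb2, also of the hindbrain, measured 8.21 and 7.82 in SmoM2 and 8.57 and 8.34 in Sox9cKO (log2 0.44, limma adjusted p = 0.258, and between 0.24 and 0.63 on the log2 scale with 1 array left out). Hoxb4, known in blood stem cells, measured 6.06 and 5.86 in SmoM2 and 6.23 and 6.15 in Sox9cKO (log2 0.23, adjusted p = 0.494). Neither passed, although the arrays of both genes were apart in the same direction as those of Hoxb3 and Hoxb6. Hoxb9, at the posterior side of the cluster, went the other way, with 6.35 and 6.53 in SmoM2 and 6.08 and 5.70 in Sox9cKO (log2 -0.55, SE 0.17, adjusted p = 0.135). Hoxb5 was below the reference on all arrays and higher by 0.32 without overlap (adjusted p = 0.334), and Hoxb13 was below it and lower without overlap (log2 -0.16, adjusted p = 0.640). Hoxb1 and Hoxb7 overlapped between the genotypes.

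A non-coding transcript inside the Hoxb cluster, no member of the family and named here after its value was seen, had a log2 difference above that of each measured Hoxb gene, with no test between them. Hoxb5os (chromosome 11, 96291037 to 96306910) measured 6.26 and 6.41 in SmoM2 and 7.76 and 7.49 in Sox9cKO. It rose by 1.29 on the log2 scale (SE 0.15, limma adjusted p = 0.00374) and stayed called without each array in turn (adjusted p between 0.00581 and 0.0380). Its span overlaps those of Hoxb6 and Hoxb5, and where its probes lie relative to them was not analysed here. In the Hoxd cluster the non-coding Gm38462, whose span overlaps Hoxd8, measured 5.35 and 5.88 in SmoM2 and 6.35 and 6.24 in Sox9cKO (log2 0.68, adjusted p = 0.105). Hoxd3os1 overlapped between the genotypes (log2 0.29, adjusted p = 0.528). Within 500 kb outside the 4 clusters, 0 of 49 measured genes were called by limma, against 6.19% of all genes. With arrays not overlapping, 9 were higher and 7 lower, against 26.0% and 21.8% of all genes, and their median difference was 0.04.

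**Figure D3:**
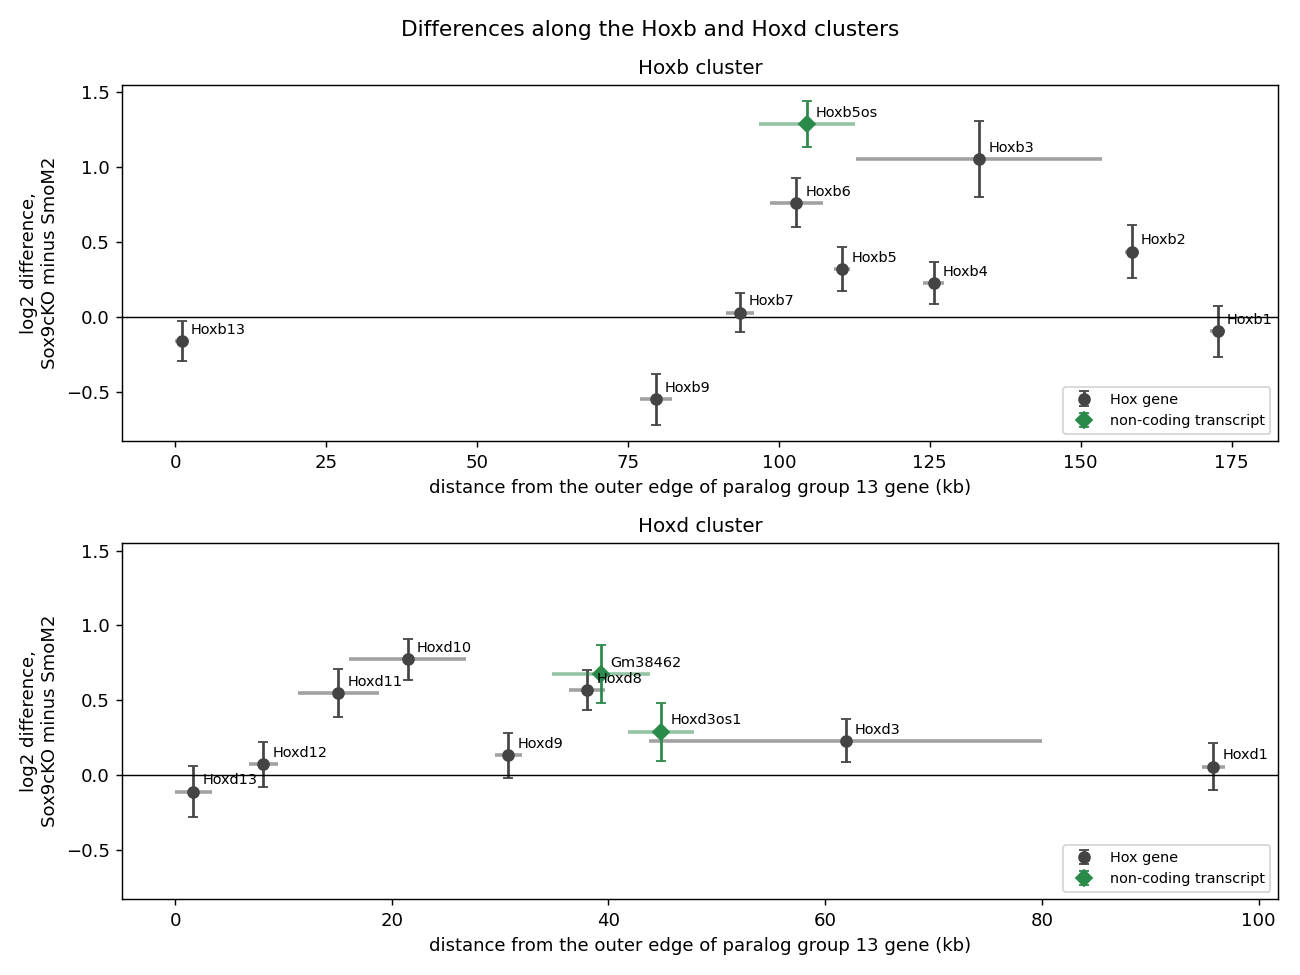
Log2 difference (Sox9cKO minus SmoM2) of each gene along the Hoxb and Hoxd clusters against distance in kb from the outer edge of the paralog group 13 gene. Horizontal bars span each gene, vertical bars are 1 standard error, circles are Hox genes and green diamonds non-coding transcripts; in Hoxb the span of Hoxb5os, at 1.29, covers Hoxb6, at 0.76, and Hoxb5, at 0.32, and ends next to Hoxb3, at 1.06.

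In the Hoxc cluster no gene was called by limma, and Hoxc8 and Hoxc9 were lower without overlap. Hoxc8, which patterns the thoracic trunk (chromosome 15, 102990539 to 102994275), measured 7.52 and 7.99 in SmoM2 and 7.12 and 7.10 in Sox9cKO. Its arrays did not overlap, and the log2 difference of -0.64 (SE 0.18) did not pass (limma adjusted p = 0.0968). Its neighbour Hoxc9 measured 7.98 and 7.64 in SmoM2 and 7.39 and 7.25 in Sox9cKO (log2 -0.49, SE 0.16, adjusted p = 0.160). Neither reached the threshold, and with 1 array left out the differences ranged from -0.88 to -0.41 for Hoxc8 and from -0.66 to -0.32 for Hoxc9.

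Hoxc5 differed between its probe sets. At the probe set used for the gene it measured 5.59 and 5.31 in SmoM2 and 5.48 and 5.03 in Sox9cKO, which overlap (log2 -0.19, limma adjusted p = 0.700). At 1439885_at it measured 5.91 and 5.58 in SmoM2 and 4.83 and 4.80 in Sox9cKO, a fall from above to below the reference. That probe set was called when all probe sets were tested (log2 -0.93, SE 0.16, limma adjusted p = 0.0268), and missed the threshold without SmoM2 replicate 1 (0.110) and without Sox9cKO replicate 1 or 2 (0.103 and 0.111). The Hox probe sets called were thus 2 of 48 (4.17%, against 3.82% of all probe sets, 1.48% higher and 2.34% lower), this one and that of Hoxd10. The remaining Hoxc5 probe set was below the reference on all arrays and overlapped.

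Hoxc13, the hair shaft regulator (chromosome 15, 102921131 to 102928814), measured 8.04 and 8.46 in SmoM2 and 8.24 and 7.99 in Sox9cKO. The genotypes overlapped, with a log2 difference of -0.14 (SE 0.18, limma adjusted p = 0.792). Hoxc10, a gene of the hindlimb and lumbar region, measured 6.47 and 6.02 in SmoM2 and 6.85 and 6.26 in Sox9cKO (log2 0.31, adjusted p = 0.587, and between 0.0166 and 0.61 on the log2 scale with 1 array left out). Hoxc4 measured 5.70 and 5.93 in SmoM2 and 5.94 and 5.68 in Sox9cKO, and Hoxc6 5.98 and 5.54 in SmoM2 and 5.64 and 5.92 in Sox9cKO. All 3 overlapped between the genotypes.

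The measured Hoxa genes from Hoxa3 to Hoxa10 were above the reference with the exception of Hoxa4, and no Hoxa gene was called by limma. Hoxa9, a trunk and limb gene also known as a driver of leukaemia, measured 10.74 and 10.92 in SmoM2 and 10.94 and 11.19 in Sox9cKO. The arrays were apart by 0.02 only, and the second Hoxa9 probe set overlapped, at 8.28 and 8.40 against 8.12 and 8.79. Hoxa10 measured 7.52 and 7.44 in SmoM2 and 7.70 and 7.92 in Sox9cKO (log2 0.33, adjusted p = 0.296). Hoxa3, which patterns the throat region, measured 5.27 and 5.41 in SmoM2 and 5.82 and 5.56 in Sox9cKO (log2 0.35, adjusted p = 0.293). Both were higher on both Sox9cKO arrays without passing. Hoxa5, needed in the lung, measured 7.21 and 6.94 in SmoM2 and 6.89 and 7.47 in Sox9cKO, and Hoxa7 7.54 and 7.64 in SmoM2 and 7.48 and 7.80 in Sox9cKO. Both overlapped between the genotypes.

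Several probe sets were present for 11 of the 33 Hox genes, and in 5 of these all probe sets had the same sign. These were Hoxa9, Hoxb3, Hoxb4 and Hoxd8, higher, and Hoxc5, lower. In Hoxa3, Hoxa4, Hoxa5, Hoxa10, Hoxc6 and Hoxd13 the signs were mixed. In Hoxa10 the probe set below the reference differed by -0.23 and the one above it by 0.33. Of the 48 probe sets 25 were above the reference on all 4 arrays and 18 on none. Above it on all 4 arrays were 1 of 4 probe sets for Hoxa3, 1 of 2 for Hoxa10, 1 of 2 for Hoxb4 and 2 of 3 for Hoxc6.

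**Figure D4:**
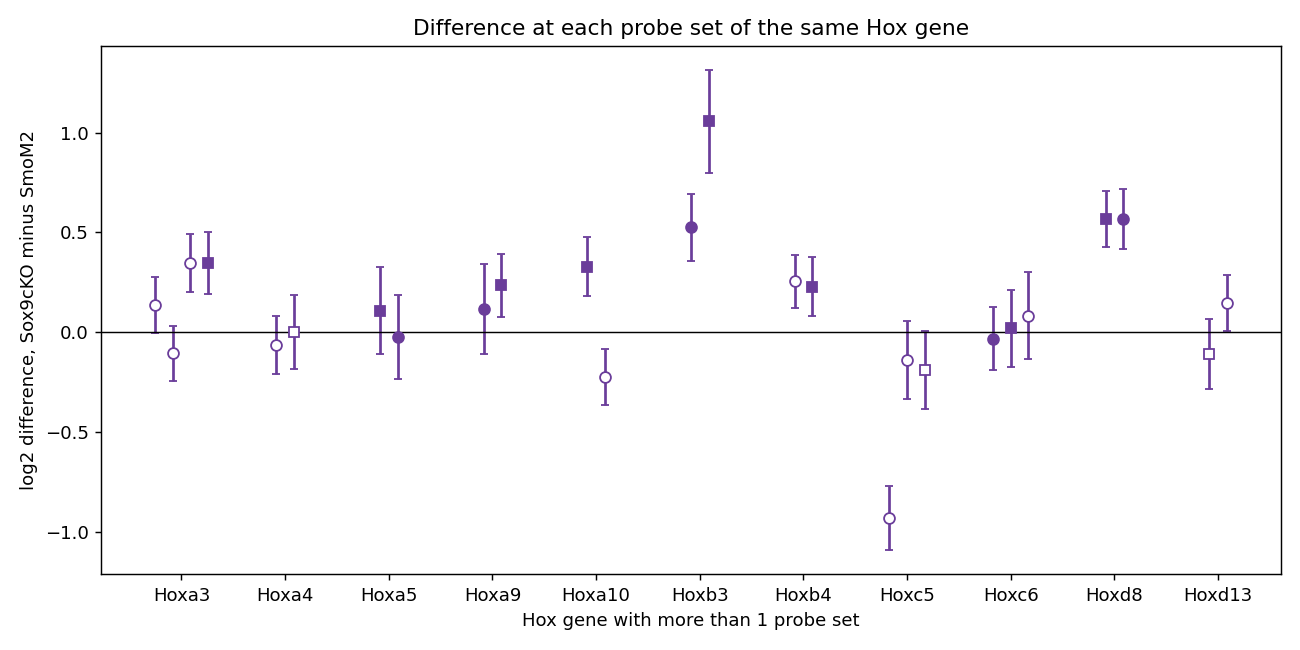
Log2 difference (Sox9cKO minus SmoM2) at each probe set of the 11 Hox genes with more than 1, with bars of 1 standard error; squares mark the probe set used for the gene, and filled points were above the reference on all 4 arrays. The Hoxd8 pair lies together at 0.57, the Hoxb3 pair at 1.06 and 0.52, and 1 of the 3 Hoxc5 probe sets lies apart at -0.93.

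Of the listed TALE homeodomain genes (Pbx, Meis, Pknox and Tgif), 1 of 10 measured fell and 0 rose, against 3.53% and 2.66% of all genes. Their median log2 difference was -0.03. Pbx3, which binds DNA with HOX proteins, measured 8.60 and 8.21 in SmoM2 and 7.18 and 7.39 in Sox9cKO. It fell by 1.12 on the log2 scale (SE 0.17, limma adjusted p = 0.0112), and missed the threshold without SmoM2 replicate 1 (adjusted p = 0.0680). Next by p-value were Tgif2, a repressor of the family (log2 -0.42, adjusted p = 0.289), and Pknox2 (log2 0.23, adjusted p = 0.453).

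Of the Polycomb genes, 1 of 28 fell and 0 rose, with a median of 0.08. This count is near the shares of all genes, 3.53% lower and 2.66% higher. Scmh1, a component of the PRC1 complex, changed from 7.36 and 7.54 in SmoM2 to 6.64 and 6.57 in Sox9cKO (log2 -0.85, limma adjusted p = 0.0145). The call was lost with SmoM2 replicate 1 left out (0.0525), with SmoM2 replicate 2 left out (0.0984) and with Sox9cKO replicate 2 left out (0.0591). Asxl1 and the ubiquitin ligase gene Rnf2 were next (log2 0.46 and 0.47, adjusted p = 0.124 and 0.134). Of 14 Trithorax and H3K27 demethylase genes 0 were called by limma, against 6.19% of all genes. A positive difference was seen in 10, and the median was 0.11. Men1, a subunit of the Mll complexes that keep Hox genes active, was at 0.50 (adjusted p = 0.0824), Ash2l at 0.26 (adjusted p = 0.394) and Kmt2c at 0.20 (adjusted p = 0.529).

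Of 18 measured upstream regulators and retinoid genes 2 fell and 0 rose, against 3.53% and 2.66% of all genes, with a median of 0.03. Aldh1a3, which makes retinoic acid, a signal that activates Hox genes in embryos, measured 9.38 and 9.72 in SmoM2 and 7.27 and 7.92 in Sox9cKO. It fell by 1.96 (SE 0.23, limma adjusted p = 0.00367). Egr2, the hindbrain factor Krox20 that activates Hoxa2 and Hoxb2 there, changed from 10.84 and 10.58 in SmoM2 to 9.24 and 9.20 in Sox9cKO (log2 -1.49, SE 0.15, adjusted p = 0.00179). Both calls held without each array in turn. Ctcf, which binds boundaries inside the clusters, was at 0.37 (adjusted p = 0.207). Of 15 genes listed as flanking the clusters 1 fell and 0 rose, against the same shares of all genes, with a median of 0.02. Snx10, beyond the Hoxa cluster and not among the genes within 500 kb counted above, was at -1.04 (limma adjusted p = 0.0171). It was at -0.54 when its probe sets were averaged (limma adjusted p = 0.0529). The call was also lost with either SmoM2 array left out (0.114 and 0.0842) and with Sox9cKO replicate 1 left out (0.0547). Next were Cbx5 and Calcoco1 beside the Hoxc cluster (log2 0.34 and -0.36, adjusted p = 0.315 and 0.328).

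The hair keratin and hair shaft list holds known targets of Hoxc13 beside other hair regulators. Of 19 measured members 5 were higher and 0 lower, against 2.66% and 3.53% of all genes, with a median of 0.32. Krt31, Krt33a, Krt34, Krt35, Krt82 and Krt86 were above the reference on no array. Of the measured keratins other than Krt71, Krt32 alone was called. Foxn1, a regulator of hair keratins known to act downstream of Hoxc13, measured 6.29 and 6.16 in SmoM2 and 8.08 and 7.68 in Sox9cKO. It rose 3.14-fold (limma adjusted p = 0.00222), and the hair matrix factor Msx2 rose 2.83-fold (adjusted p = 0.00315), or by 0.70 on the log2 scale when its probe sets were averaged (adjusted p = 0.0244). The inner root sheath keratin Krt71 was higher by 1.41 (adjusted p = 0.00953, and 0.0681 and 0.0821 without SmoM2 replicate 1 or 2). Dlx3 was higher by 1.48 (adjusted p = 0.0451), and was not called when the prior followed intensity and was robust (0.0729), after quantile normalization (0.0557) or with either SmoM2 array left out (0.219 and 0.184). Its difference was 0.92 without Sox9cKO replicate 1 and 2.05 without Sox9cKO replicate 2. The hair keratin gene Krt32 was higher by 1.26 (adjusted p = 0.0331), and by 0.84 without SmoM2 replicate 2 (0.0755). It also missed the threshold without Sox9cKO replicate 1 or 2 (0.0883 and 0.0818). Hoxc13 itself overlapped between the genotypes, as given above.

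Markers of other cells were read beside these values, since in bulk samples fewer cells of a type and less RNA per cell cannot be told apart. The counts called are read against the 2.66% of all genes called higher and the 3.53% called lower. Dermal fibroblasts keep a strong Hox pattern, and 6 of 9 measured fibroblast markers, Col1a1, Col3a1, Pdgfra and Lum among them, were above the reference on no array, with 0 called by limma. Col1a2 (log2 0.72, adjusted p = 0.273) and Pdgfrb (log2 0.11, adjusted p = 0.840) were above it on all 4 arrays, and Col6a1 on both SmoM2 arrays only (log2 -0.91, adjusted p = 0.106). The mean of the list was 4.57 and 4.64 in SmoM2 and 4.63 and 4.72 in Sox9cKO. Dcn, a fibroblast gene outside that list and chosen after its value was seen, measured 8.85 and 8.70 in SmoM2 and 12.09 and 12.78 in Sox9cKO. It was higher by 3.66 in Sox9cKO (limma adjusted p = 4.46e-04), while the list itself had 0 called. Of 7 endothelial markers 0 were called by limma, with means of 4.88 to 4.91 in SmoM2 and 4.80 to 4.90 in Sox9cKO. Markers of hair matrix, inner root sheath and cortex did move with the genotype: 5 of 7 measured were higher and 0 lower, with a mean of 5.92 and 5.74 in SmoM2 and 7.43 and 7.29 in Sox9cKO. Krt71 stands in both this and the hair keratin list. Suprabasal markers had 3 of 8 higher and 0 lower, from 10.03 and 9.69 in SmoM2 to 10.40 and 10.68 in Sox9cKO. Basal markers had 1 of 9 lower and 0 higher, from 11.30 and 11.67 in SmoM2 to 10.98 and 11.07 in Sox9cKO. Bulge markers had 2 of 8 lower and 1 higher. Merkel cell markers had 1 of 6 lower, Sox2 (log2 -3.20). Krt20, Atoh1 and Isl1 of that list were above the reference on no array, and Krt18, above it on all 4, was not called. Of the Langerhans and myeloid markers 1 of 8 was higher, of the T cell markers 1 of 5 (Thy1; Cd3e was above the reference on all 4 arrays and Cd3d, Cd3g and Cd2 on none) and of the skeletal muscle markers 1 of 6. Of the 6 melanocyte markers 0 were called by limma, the lowest adjusted p being that of Dct (log2 0.59, adjusted p = 0.163). The part of these cell types in the Hox differences was not tested.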

How the data were processed

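The deposited values are log2 signals made by the authors, 1 per probe set and array. The steps of normalization and summary were not given in the sources used here; the submitters' processing notes list R 2.14.0 with no step attached. That they are log2 values was inferred from their range. Of 45101 probe sets 64 were controls and were left out, and probe sets with several symbols (932) or not in the annotation (9160) entered the fit over probe sets only. For 34741 probe sets the entrez ID gave the symbol of the RefSeq annotation used.

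Sox9cKO was compared with SmoM2 by limma 3.58.1 under R 4.3.3 (eBayes after lmFit, default prior, two-sided, 7.17 degrees of freedom), with Benjamini-Hochberg adjustment over all genes or all probe sets and a threshold of 0.05. The procedure was tested on simulated data. Arrays give no read depth, so their number limits the precision. The Hox genes, the lists and the alternatives were chosen with earlier results of these data known. Named are Hox genes above the reference on both arrays of a genotype or called, and of each list the members called and the 3 of smallest p; other Hox genes were named where a count is spelled out. Alternatives were the choice of probe set, the prior, a filter on dim genes, quantile normalization, the replicate block, the reference and leaving out each array.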

Additional observations from a re-analysis of the deposited data

How the results depend on the processing

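The count of 2 Hox genes higher became 4 with the replicate block (Hoxb3 and Hoxd8 beside Hoxb6 and Hoxd10), 3 with the mean of all probe sets or with the intensity trend and robust prior (Hoxd8 added in both), 3 with the dimmer genes left out (Hoxb3, Hoxd8 and Hoxd10, as Hoxb6 was not tested there), 1 with every probe set tested and 0 to 1 without each array in turn, where the lone array is taken to vary as the intact pair does. The count of 0 Hox genes lower became 1 with the replicate block (Hoxc8, adjusted p = 0.0278) and 1 with every probe set tested (Hoxc5), and stayed 0 in the other alternatives. The labels do not say that replicate numbers pair the arrays. Replicate 1 minus replicate 2 correlated between genotypes at 0.12 over all probe sets, 0.09 over genes and -0.10 over the Hox genes. The block moved the calls over all genes from 1126 to 1919 (6.19% to 10.5%). The share of all genes called was 5.58% with the mean of all probe sets and 6.32% with the intensity trend and robust prior. It was 8.81% with the dimmer genes left out, and 3.82% of probe sets with every probe set tested. Leaving out an array also lowered the share of all genes called. The Hox counts above are to be read beside these shares. Whether the numbers pair the arrays cannot be settled with 2 per genotype, and the values reported are those without the block. The count of 20 Hox genes above the reference ranged from 15 (99th percentile) to 22 (90th percentile).

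Of 201 values of single Hox genes under the alternatives, 172 kept their sign and side of the threshold, 8 passed it newly, 7 lost it and 14 changed sign, none of the latter in a called gene. Those that changed sign without an array ranged over the 4 fits from -0.18 to 0.40 for Hoxa5, -0.11 to 0.21 for Hoxa7, -0.13 to 0.13 for Hoxc4, -0.42 to 0.035 for Hoxc5, -0.20 to 0.24 for Hoxc6, -0.35 to 0.0745 for Hoxc13 and -0.0043 to 0.27 for Hoxd9. Without probe sets of the _x_at and _s_at kind Hoxa5 was at -0.025 and Hoxc6 at -0.033, and with quantile normalization Hoxc6 was at -0.0025. The cause was not tested. With 2 arrays per genotype, differences near the replicate spread cannot be resolved.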
